A study of Mus musculus with 9 samples.

Results

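The genes described here are the replication-dependent histone genes of the mouse, taken as every symbol of the form H1f1 to H1f6, H2ac, H2bc, H3c or H4c followed by a number. The rule used names only and found 59 of the 25579 gene symbols in the deposited table that holds the homozygous and treated libraries. They comprise 6 genes of the linker histone H1, 15 of H2A, 16 of H2B, 11 of H3 and 11 of H4. In the separate deposited table that holds the wild-type and homozygous libraries, 3 of these genes were listed among 1410 symbols.

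RNA was measured by strand-specific sequencing of total RNA from the membranous labyrinth of the cochlea, the soft tissue that holds the sensory epithelium, at postnatal day 28. The labels describe 9 libraries in 3 groups of 3 biological replicates. WT libraries came from mice with the wild-type Mpzl2 gene, and HOMO libraries came from mice homozygous for a humanized MPZL2 allele with a nonsense change, named hMPZL2Q74X/Q74X. Treated libraries came from mice of that same homozygous genotype that received the vector AAV-ie-ABE8eWQ-SpRY:sgRNA3 by the round window membrane route on postnatal day 2. This vector is an adeno-associated virus for a base editor, an enzyme that rewrites adenines at the site its guide RNA names. The labels record an injection for the treated mice only, so the injection, the virus and the editing cannot be told apart in a comparison with HOMO. The promoter that drives the editor, the injected ears and any pooling of mice are not stated in the sources used here. Groups were read from the sample titles, because the genotype entries count upward from one library to the next.

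Nucleosomes wrap DNA around a core of H2A, H2B, H3 and H4, and H1 binds the DNA that enters and leaves the core. Dividing cells make most of their histones during DNA replication, from clusters of many short, mostly intronless gene copies whose coding sequences are nearly the same. The mRNAs of these genes usually end in a conserved stem-loop, bound by the protein SLBP, in place of a poly(A) tail, and the U7 small nuclear RNA directs the cut that forms this end. The hair cells of the mouse cochlea have left the cell cycle before birth, while blood, marrow and connective tissue hold dividing cells.

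The 3′ stem-loop was searched because it takes the place of the poly(A) tail in these mRNAs, so that libraries made from total RNA, as here, can hold them where a selection for poly(A) would lose them. Of the 59 genes, 58 were matched to transcripts of GENCODE M21, an annotation of the build GRCm38. The motif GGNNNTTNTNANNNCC, 16 bases whose arms must pair with G-T pairs allowed, was found on the sense strand in 41 of these 58 genes, against 108 of 21901 protein-coding genes (0.493%). Of the 17 genes without it, 10 have at least 1 annotated transcript that holds the coding part only. H2bc23 is among them and also has longer annotated transcripts, of up to 2015 bases. The same 16 bases, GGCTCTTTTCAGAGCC, were found in 23 genes from the families outside H4. The annotated transcript ran on after them for between 3 bases in H2ac24 and 4884 bases in H1f3. All 31 stem-loops outside H4 opened with GGCT, whereas the 10 of H4 opened with GGCC or GGTC. The genes that carry the results below show these forms, with the stem-loop in capitals and its annotated flanks in lower case.
H1f2: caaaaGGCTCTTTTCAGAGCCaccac
H2ac18: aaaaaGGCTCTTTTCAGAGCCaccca
H2ac19: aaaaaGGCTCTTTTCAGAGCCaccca
H2bc12: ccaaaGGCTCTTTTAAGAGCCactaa
H3c2: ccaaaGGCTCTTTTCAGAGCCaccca
H3c3: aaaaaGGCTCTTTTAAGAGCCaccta
H4c8: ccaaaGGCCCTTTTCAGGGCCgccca
H4c17: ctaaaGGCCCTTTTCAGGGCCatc
H4c18: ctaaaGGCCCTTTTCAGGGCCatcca
H2ac18 and H2ac19 were identical over the bases shown, and H4c17 and H4c18 were identical up to the annotated end of H4c17. H2bc12 and H3c3 carried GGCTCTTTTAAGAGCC, a form found in 6 genes.

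The promoters, 250 bases before to 50 bases after the start in the RefSeq tables of GRCm38.p6, were available for 53 of the 59 genes. Each motif was searched on both strands and as a plain string of letters. A gene was counted as holding a motif if any of its listed promoters did. CCAAT, the letters bound by the factor NF-Y, was present in 45 of 53 (84.9%), against 41.1% of all 27025 genes with a promoter. It was present for every gene of H1, H2A, H2B and H3 in this set and for 2 of the 10 of H4. TATAAA was present in 30 of 53 (56.6%, against 15.7% of all genes). The octamer ATTTGCAT, bound by POU domain factors and known from H2B promoters, was present for 6 of 13 H2B and 4 of 15 H2A genes. This was 18.9% of the 53 against 1.97% of all genes. GGTCC, part of H4 promoter elements, was present for all 10 H4 genes and for 43.4% of the 53, against 48.7% of all genes. These shares describe the letters in the window. In the 3 promoters shown, of the most abundant gene, of an H2B gene with an octamer and of the H4 gene that passed the test, capitals mark the CCAAT, TATA and octamer letters above on either strand.
H2ac18 (chr3:96245247-96245546, + strand): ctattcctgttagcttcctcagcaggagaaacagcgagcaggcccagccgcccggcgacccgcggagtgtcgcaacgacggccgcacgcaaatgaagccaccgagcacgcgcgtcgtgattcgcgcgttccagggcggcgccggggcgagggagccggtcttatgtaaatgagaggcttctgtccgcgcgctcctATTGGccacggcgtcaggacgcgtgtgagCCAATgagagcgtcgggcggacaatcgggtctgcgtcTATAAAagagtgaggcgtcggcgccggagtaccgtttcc
H2bc12 (chr13:22035571-22035870, + strand): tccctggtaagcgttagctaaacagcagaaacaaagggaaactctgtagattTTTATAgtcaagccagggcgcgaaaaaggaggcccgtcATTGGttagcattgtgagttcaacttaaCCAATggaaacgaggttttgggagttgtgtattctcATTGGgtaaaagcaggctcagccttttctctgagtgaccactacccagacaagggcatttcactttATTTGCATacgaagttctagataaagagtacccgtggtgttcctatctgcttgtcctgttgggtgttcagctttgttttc
H4c18 (chr13:21832148-21832447, - strand): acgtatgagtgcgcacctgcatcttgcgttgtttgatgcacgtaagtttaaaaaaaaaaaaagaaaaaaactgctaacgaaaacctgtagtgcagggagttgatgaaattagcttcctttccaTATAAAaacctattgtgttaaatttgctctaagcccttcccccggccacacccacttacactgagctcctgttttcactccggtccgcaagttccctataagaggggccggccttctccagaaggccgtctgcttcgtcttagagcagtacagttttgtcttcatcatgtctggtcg
The promoters of H2ac18 and its copy H2ac19 share an unbroken run of 219 identical bases out of 300. In the same RefSeq annotation the genes fall on chromosomes 13 and 3, with all 6 H1 genes on chromosome 13 and 4 of the H2A genes on chromosome 3.

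The copies limit what a level of 1 gene means. Reads were assigned to transcripts by kallisto, per the submitters' processing notes, and a read that fits several copies is divided among them by estimation. In GENCODE M21, 18 of the 58 genes had fewer than 20% of their 31-base windows to themselves, and 6 had more than 90%. H2ac18, H2ac19, H2bc18 and H3c13 had no window that was absent from all other genes. The median share of windows unique to a gene was 96.2% for H1, 20.2% for H2A, 41.5% for H2B, 38.1% for H3 and 50.0% for H4. Sums over a family are therefore given beside the single genes, in TPM, an abundance scaled for transcript length and for the total of the library, which allows levels of different genes to be compared. Such sums do not settle reads shared with genes outside the set. For each of H2ac18, H2bc18 and H3c13, a gene outside the 58 held 100% of the windows. The sequencing depth cannot be recovered from TPM and is unknown, and no detection limit can be given. The share of all TPM held by the 59 genes lay between 0.128% and 0.314% in the 6 libraries of HOMO and treated mice.

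Libraries of the series stand apart in several ways that touch these genes. Treated libraries 1 and 2 were nearly identical, with a median absolute log2 ratio of 0.0749 over genes at 1 to 5 TPM, against 0.592 to 0.744 between HOMO libraries. They were averaged and counted as 1 sample, so that treated n = 2 and HOMO n = 3. The named gene, Mpzl2, was lower in HOMO than in WT with no overlap (log2 fold change -1.25, limma adjusted p = 0.0139), and missed the threshold between treated and HOMO (-0.80, limma adjusted p = 0.335). The sources used here do not say whether reads of the humanized sequence count toward that mouse symbol. Markers of cochlear hair cells summed to 150.4, 254 and 281 TPM in the HOMO libraries and 532, 401 and 356 TPM in the treated libraries, and those of supporting cells and the lateral wall to 12607, 13058 and 9775 TPM in the HOMO libraries and 6218, 6025 and 7164 TPM in the treated libraries, so the defining markers of the labelled tissue were present in each library. Markers of forebrain neurons summed to 159.5, 166 and 194 TPM in the HOMO libraries and 1382, 1360.4 and 181 TPM in the treated libraries, so treated libraries 1 and 2 stood apart from all others in them. Mitochondrially encoded genes took 10.7% to 13.6% of TPM in HOMO, 2.17% and 2.22% in treated libraries 1 and 2 and 6.16% in treated library 3. As these are bulk samples, fewer cells of a type and less RNA per cell cannot be told apart.

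H2A genes made up most of the replication-dependent histone RNA in both groups, and no family sum separated treated from HOMO libraries. The 59 genes together summed to 1553, 2933 and 1277 TPM in the HOMO libraries and 2155, 2187 and 3131 TPM in the treated libraries. HOMO library 2 was the highest HOMO library and lay inside the treated range. The means were 1921 ± 887 TPM in HOMO (SD, n = 3) and 2651 ± 679 TPM in treated samples (SD, n = 2), a ratio of 1.38 that is smaller than the spread between replicates. H2A accounted for 68.7% of the summed mean in HOMO and 74.2% in treated samples, H2B for 14.4% and 9.96%, H1 for 6.96% and 6.20%, H3 for 5.11% and 6.50%, and H4 for 4.88% and 3.15%.

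By family, the linker histones summed to 103, 219.8 and 77.6 TPM in the HOMO libraries and 142, 142 and 187 TPM in the treated libraries. The treated values lay inside the HOMO range, and the ratio of means was 1.23. H2A summed to 1078, 1985 and 896 TPM in the HOMO libraries and 1555, 1597 and 2358 TPM in the treated libraries, a ratio of 1.49, with treated library 3 above every HOMO library. H2B summed to 220.1, 389.7 and 218 TPM in the HOMO libraries and 272, 256 and 264 TPM in the treated libraries, a ratio of 0.957. The treated H2B values were close to one another and stood between HOMO libraries 1 and 3 on one side and HOMO library 2 on the other. H3 summed to 54.3, 209 and 30.6 TPM in the HOMO libraries and 167, 174 and 174 TPM in the treated libraries, the widest HOMO spread of the 5 families relative to its mean (98.1 ± 97.2 TPM, SD, n = 3), and the ratio was 1.76. H4 summed to 96.8, 129 and 55.5 TPM in the HOMO libraries and 18.8, 18.3 and 149 TPM in the treated libraries, so treated libraries 1 and 2 were below and treated library 3 above every HOMO library. Its ratio of 0.893 averages values on opposite sides of the HOMO range, and with treated library 3 left out the log2 ratio of means is -2.34 in place of -0.16.

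**Figure D1:**
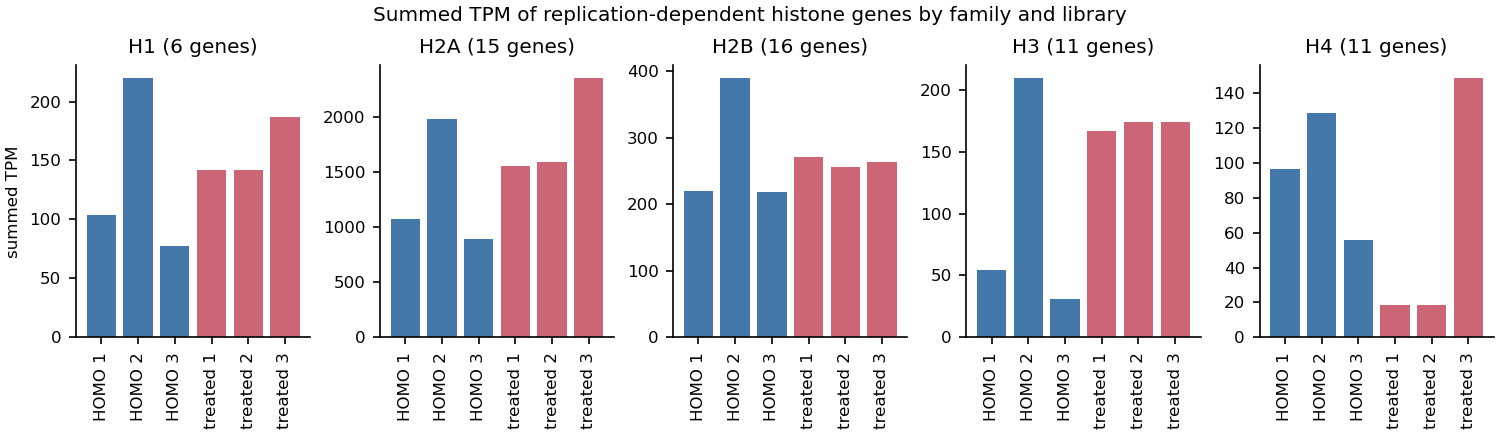
Summed TPM (vertical axis, linear, from 0) of each histone family in each library (horizontal axis), 1 panel per family, with HOMO libraries in blue and treated libraries in red. HOMO library 2 is the highest HOMO library in all 5 panels, and H4 is at 18.8 and 18.3 TPM in treated libraries 1 and 2 and at 149 TPM in treated library 3.

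HOMO library 2 was the highest HOMO library for most of these genes. It led for 46 of the 58 genes with any HOMO value above 0, and for 41 of the 50 tested genes (82%), against 40.5% of all tested genes. Its ratio to the mean of HOMO libraries 1 and 3 was 2.43 for H1, 2.01 for H2A, 1.78 for H2B, 4.93 for H3 and 1.69 for H4. The median ratio was 2.62 over the tested histone genes and 1.02 over all tested genes. Genes of G2 and mitosis, which are expressed in dividing cells, were highest in HOMO library 2 for 14 of 16 and summed to 68.8, 146 and 29.9 TPM in the HOMO libraries and 137, 147 and 144 TPM in the treated libraries. Genes of DNA replication were highest there for 16 of 22 and summed to 235, 336 and 211 TPM in the HOMO libraries and 339.8, 317 and 293 TPM in the treated libraries. So the same library that led the histone genes also led both lists of genes of dividing cells.

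Markers of blood-forming and bone cells moved with HOMO library 2 as well. All 9 markers of granulocyte precursors, such as S100a9 and Ltf, were highest there among HOMO libraries and summed to 149, 617 and 54.0 TPM in the HOMO libraries and 225, 226 and 233 TPM in the treated libraries. Elane and Ctsg were listed at 0 in HOMO library 3. All 8 erythroid markers found in the table, such as the globin genes Hba-a1 and Hba-a2, were highest there and summed to 833, 2736 and 251 TPM in the HOMO libraries and 1108, 1283 and 1135 TPM in the treated libraries. All 8 bone markers, such as Ibsp, were highest there and summed to 276, 1149 and 305 TPM in the HOMO libraries and 158, 154 and 121 TPM in the treated libraries. Among markers with a HOMO value above 0, HOMO library 2 was also the highest HOMO library for 8 of 10 of macrophages and 7 of 12 of lymphocytes. It was so for 5 of 11 of supporting cells and the lateral wall, 3 of 7 of hair cells and 1 of 7 of forebrain neurons. The part of any of these cells in the histone values of HOMO library 2 was not tested.

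Without HOMO library 2, an alternative chosen after the data were seen, the ratio of treated to HOMO means rises to 1.81 for H1, 1.99 for H2A, 1.21 for H2B, 4.06 for H3 and 1.10 for H4. The sum of all 59 genes then has a ratio of 1.87, and HOMO and treated libraries no longer overlap in H1, H2A, H2B or H3. They still overlap in H4. These ratios rest on 2 HOMO libraries, and no p-value is given for a sum over genes that were chosen as a set.

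**Figure D2:**
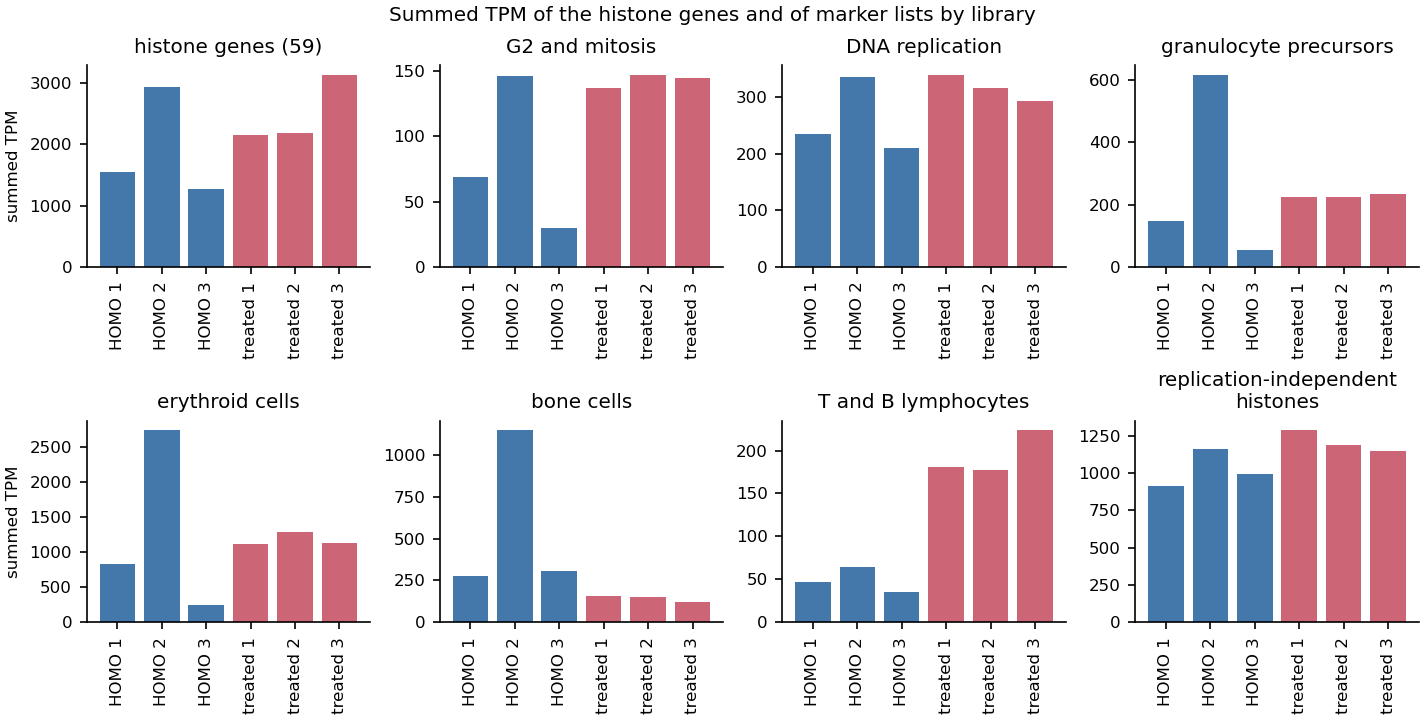
Summed TPM (vertical axis, linear, from 0, with its own range in each panel) of the 59 histone genes and of 7 marker lists in each library (horizontal axis), HOMO in blue and treated in red. HOMO library 2 is the highest HOMO library in every panel shown, reaching 2736 TPM for erythroid markers against 833 and 251 TPM in HOMO libraries 1 and 3. The 7 lists are a part of 14. Of those not shown, HOMO library 2 also led the sums of macrophages and of supporting cells and the lateral wall. It did not lead those of histone chaperones, histone mRNA transcription and processing, noncoding RNAs, forebrain neurons or hair cells.

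Single genes were tested with limma on log2(TPM + 1), a scale on which the fold change of weakly expressed genes comes out too small. Of the 59 genes, 50 reached 1 TPM in at least 3 deposited libraries and were tested. The 9 that did not were H1f6, H2ac6, H2ac7, H2ac21, H2bc13, H2bc22, H2bc24, H4c2 and H4c17. An adjusted p under 0.05 was reached by 1 of the 50, H4c18, in the lower direction, whereas 4.41% of all 17102 tested genes reached it, 3.44% higher and 0.965% lower. At an unadjusted p under 0.05 there were 8 of 50, against 26.7% of all tested genes. Fold changes were above 0 for 27 and below 0 for 23, with a median of 0.15 against 0.20 over all tested genes. With treated libraries 1 and 2 averaged, HOMO and treated samples did not overlap for 11 of the 50 (7 higher and 4 lower), a share of 22% against 45% of all tested genes (29.2% higher and 15.8% lower). None of these 3 shares was above that of all tested genes.

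Their spread was wide. The SD of log2 values among HOMO libraries had a median of 1.33 in genes with under 20% unique windows, 1.20 in those with 20 to 50% and 0.65 in those above 50%, against 0.255 over all tested genes. The median standard error of the fold change was 0.87, 0.96 and 0.61 in these classes and 0.354 over all tested genes. A listing at 0 in at least 1 library was found for 23 of the 50 tested genes (46%), against 4.94% of all tested genes.

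**Figure D3:**
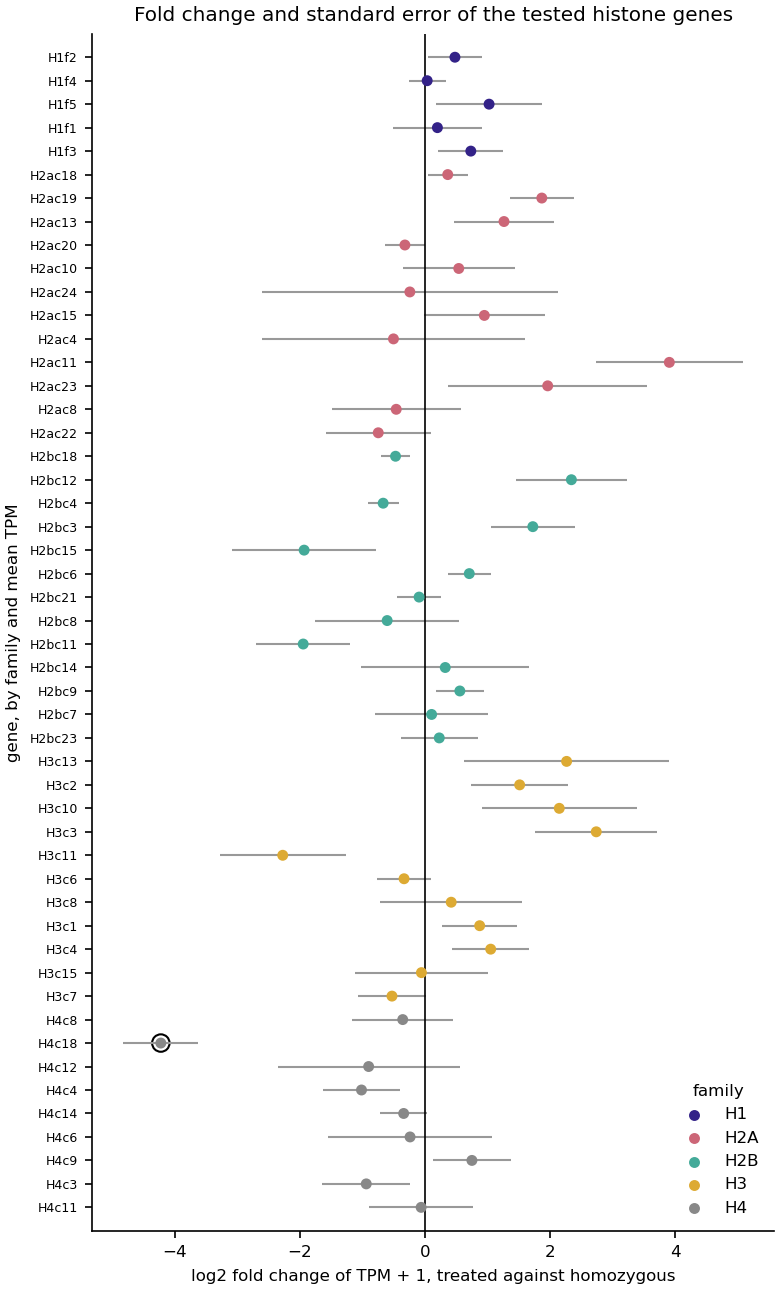
Log2 fold change of TPM + 1 (horizontal axis) of treated samples against HOMO for the 50 tested histone genes (vertical axis), ordered by family and mean level, with bars of 1 standard error. The black ring marks H4c18, which passed the test, and 8 of 9 H4 genes but none of the 5 H1 genes lie below 0.

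Among the H1 genes, all 5 tested fold changes were above 0 and none passed the test (median 0.48). H1f2, a linker histone variant and the most abundant of them, was at 51.1, 104 and 40.9 TPM in HOMO libraries 1, 2 and 3 and 64.9, 65.0 and 109 TPM in treated libraries 1, 2 and 3 (log2 fold change 0.48, SE 0.43, limma adjusted p = 0.512). HOMO library 2 lay beside treated library 3, and the groups overlapped. H1f4, another linker variant, was at 29.4, 48.5 and 28.2 TPM in the HOMO libraries and 39.8, 38.1 and 31.7 TPM in the treated libraries (log2 fold change 0.04, SE 0.30, limma adjusted p = 0.951). Its fold change was near 0 and turned negative under another scaling of the libraries (-0.15, limma adjusted p = 0.767). H1f5 was at 11.4, 36.0 and 3.07 TPM in the HOMO libraries and 18.5, 20.6 and 29.6 TPM in the treated libraries (log2 fold change 1.02, SE 0.85, limma adjusted p = 0.481), so that HOMO library 2 exceeded all treated libraries. H1f3, the H1 gene with the smallest p, was at 2.50, 7.30 and 2.39 TPM in the HOMO libraries and 8.36, 7.80 and 5.49 TPM in the treated libraries (log2 fold change 0.73, SE 0.52, limma adjusted p = 0.410). H1f1 was at 9.05, 23.6 and 3.08 TPM in the HOMO libraries and 10.6, 10.3 and 10.5 TPM in the treated libraries, alike in the treated libraries and spread in HOMO. H1f6, the testis-specific linker histone, was listed at 0 in 5 of 6 libraries and at 0.402 TPM in HOMO library 2.

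In the H2A family, H2ac18 was the most abundant gene of the whole set, and its values are read together with those of its copy H2ac19. A gene outside the set also shares 100% of the windows of H2ac18 and is not part of their sum. H2ac18 was at 597, 979.9 and 679 TPM in HOMO libraries 1, 2 and 3 and 1019.6, 435 and 1231 TPM in treated libraries 1, 2 and 3 (log2 fold change 0.36, SE 0.32, limma adjusted p = 0.508). H2ac19, all of whose windows also occur in H2ac18, was at 156, 150.2 and 48.6 TPM in the HOMO libraries and 0, 648 and 454 TPM in the treated libraries (log2 fold change 1.87, SE 0.51, limma adjusted p = 0.0827). Treated libraries 1 and 2, otherwise nearly identical, gave 0 and 648 TPM for H2ac19 and 1019.6 and 435 TPM for H2ac18. The sum of both copies was 753, 1130.1 and 728 TPM in the HOMO libraries and 1019.6, 1084 and 1685 TPM in the treated libraries, in which treated libraries 1 and 2 were close to each other. With a log2 fold change of 0.64 (SE 0.31) the sum missed the threshold (limma adjusted p = 0.240), and HOMO library 2 exceeded treated libraries 1 and 2. For H2ac19 alone the fold change is -2.31 without treated library 2, so 1 library decides its direction.

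Other H2A genes were present at lower levels. H2ac13 was at 75.9, 356 and 43.8 TPM in the HOMO libraries and 304, 254 and 235 TPM in the treated libraries (log2 fold change 1.26, SE 0.80, limma adjusted p = 0.355). It shares 84.8% of its windows with H2ac7, and the 4 copies H2ac7, H2ac10, H2ac13 and H2ac22 summed to 122, 481 and 56.4 TPM in the HOMO libraries and 349, 325 and 289 TPM in the treated libraries (limma adjusted p = 0.436). HOMO library 2 was above every treated library in that sum, and HOMO libraries 1 and 3 were below. H2ac20 was at 128, 166 and 97.4 TPM in the HOMO libraries and 77.2, 75.7 and 136 TPM in the treated libraries (log2 fold change -0.32, SE 0.32, limma adjusted p = 0.561), with the groups overlapping. H2ac23 was at 0, 0 and 4.24 TPM in the HOMO libraries and 56.5, 32.9 and 0 TPM in the treated libraries (log2 fold change 1.96, SE 1.59, limma adjusted p = 0.470), and its copy H2ac24 was at 24.1, 80.8 and 0.00149 TPM in the HOMO libraries and 0.0901, 0.0548 and 107 TPM in the treated libraries. Where one of these copies was high the other was near 0 in the treated libraries, and together they summed to 24.1, 80.8 and 4.25 TPM in the HOMO libraries and 56.5, 33.0 and 107 TPM in the treated libraries. H2ac11, named because its fold change was the highest of the set once values were seen, was at 10.9, 0 and 0 TPM in the HOMO libraries and 6.17e-06, 35.6 and 61.1 TPM in the treated libraries (log2 fold change 3.90, SE 1.17, limma adjusted p = 0.101). H2ac15 was at 16.6, 62.9 and 4.24 TPM in the HOMO libraries and 51.9, 43.4 and 24.0 TPM in the treated libraries (log2 fold change 0.95, SE 0.96, limma adjusted p = 0.566), with HOMO library 2 above the treated libraries. H2ac4 was at 17.9, 55.4 and 0 TPM in the HOMO libraries and 0, 0 and 50.9 TPM in the treated libraries, high only in HOMO library 2, HOMO library 1 and treated library 3. The lowest H2A fold change was -0.75, of H2ac22, and the untested H2ac6, H2ac7 and H2ac21 stayed under 5 TPM in each library.

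The histone genes in which the otherwise alike treated libraries 1 and 2 differed were genes that share most of their windows with others. A difference of more than 0.5 on the log2 scale between these libraries was found in 4 of 16 tested histone genes with under 20% unique windows, in 2 of 17 with 20 to 50% and in 0 of 17 above 50%, against 4.59% of all tested genes. The 6 genes were H2ac10, H2ac11, H2ac18, H2ac19, H2ac23 and H2bc11. The class limits and the gap of 0.5 were chosen after the values were seen.

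**Figure D4:**
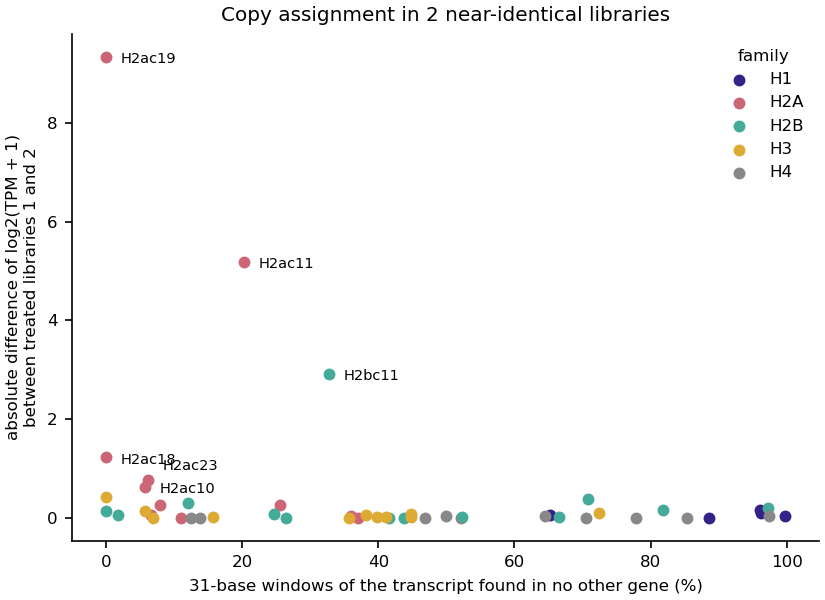
Absolute difference of log2(TPM + 1) between the near-identical treated libraries 1 and 2 (vertical axis) against the percentage of 31-base transcript windows found in no other gene (horizontal axis), 1 point per tested histone gene, coloured by family. The 6 labelled genes differ by more than 0.5, H2ac19 by 9.34, and no gene with over 50% unique windows does.

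In the H2B family the samples of both groups did not overlap for 6 of 13 tested genes, 3 higher and 3 lower, a share of 46.2% close to the 45% of all tested genes, and none passed the test. H2bc18, the most abundant of them, was at 134, 202 and 137 TPM in HOMO libraries 1, 2 and 3 and 106, 96.7 and 123 TPM in treated libraries 1, 2 and 3 (log2 fold change -0.47, SE 0.24, limma adjusted p = 0.253). HOMO libraries were all above the treated ones. H2bc18 has no window to itself, and a gene outside the set shares 100% of its windows. H2bc4 was likewise higher in each HOMO library, at 39.2, 52.0 and 39.2 TPM in the HOMO libraries and 22.7, 23.0 and 31.3 TPM in the treated libraries (log2 fold change -0.67, SE 0.25, limma adjusted p = 0.153). It has 66.5% of its windows to itself, and its annotated transcript is 1156 bases long. H2bc12 lay on the other side, at 5.61, 27.6 and 2.78 TPM in the HOMO libraries and 73.9, 77.5 and 25.6 TPM in the treated libraries (log2 fold change 2.34, SE 0.89, limma adjusted p = 0.157), and treated library 3 was just below HOMO library 2. H2bc3 was at 5.53, 18.8 and 2.95 TPM in the HOMO libraries and 28.7, 29.0 and 22.3 TPM in the treated libraries (log2 fold change 1.72, SE 0.67, limma adjusted p = 0.163), with every treated library above every HOMO library. The sum of the family was similar in both groups while its members differed in sign. Without H2bc18 the log2 ratio of the family means was 0.36 in place of -0.06. H2bc6 was at 6.93, 7.43 and 7.03 TPM in the HOMO libraries and 10.4, 9.25 and 15.3 TPM in the treated libraries (log2 fold change 0.71, SE 0.34, limma adjusted p = 0.239), with no overlap between libraries. H2bc21 was at 5.42, 7.40 and 6.87 TPM in the HOMO libraries and 6.32, 5.42 and 6.22 TPM in the treated libraries, alike in both groups. The lowest H2B fold change was that of H2bc11, at 4.19, 13.9 and 5.53 TPM in the HOMO libraries and 6.56, 0 and 0 TPM in the treated libraries (log2 fold change -1.95, SE 0.75, limma adjusted p = 0.163), which was listed at 0 in 1 of the 2 nearly identical treated libraries and at 6.56 TPM in the other.

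The H3 genes had the highest median fold change of the 5 families (0.87 over 11 tested genes, 7 above 0), and none passed the test. H3c2 was at 8.96, 39.1 and 4.75 TPM in HOMO libraries 1, 2 and 3 and 41.3, 43.2 and 31.7 TPM in treated libraries 1, 2 and 3 (log2 fold change 1.51, SE 0.77, limma adjusted p = 0.260). Treated libraries were between 31.7 and 43.2 TPM, and HOMO library 2 fell inside that range. H3c3 was at 1.87, 9.83 and 0 TPM in the HOMO libraries and 30.2, 29.9 and 13.1 TPM in the treated libraries (log2 fold change 2.74, SE 0.97, limma adjusted p = 0.140). It was higher in each treated library than in each HOMO library. H3c10 was at 9.82, 22.8 and 0 TPM in the HOMO libraries and 32.8, 29.7 and 23.5 TPM in the treated libraries (log2 fold change 2.15, SE 1.23, limma adjusted p = 0.313), but its copy H3c11 was at 4.56, 32.7 and 8.35 TPM in the HOMO libraries and 0, 0 and 5.22 TPM in the treated libraries, in the other direction. Both copies together summed to 14.4, 55.4 and 8.35 TPM in the HOMO libraries and 32.8, 29.7 and 28.7 TPM in the treated libraries, a set of values in which HOMO library 2 was the highest (limma adjusted p = 0.610). H3c13 was at 15.0, 76.5 and 0 TPM in the HOMO libraries and 28.1, 37.9 and 77.3 TPM in the treated libraries (log2 fold change 2.26, SE 1.64, limma adjusted p = 0.418) and has no window to itself. Among the less abundant H3 genes, H3c1 was at 1.20, 5.83 and 1.70 TPM in the HOMO libraries and 7.29, 7.25 and 3.80 TPM in the treated libraries (log2 fold change 0.87, SE 0.60, limma adjusted p = 0.393) and H3c4 at 1.80, 3.38 and 0.460 TPM in the HOMO libraries and 7.35, 6.83 and 2.62 TPM in the treated libraries (log2 fold change 1.05, SE 0.61, limma adjusted p = 0.319). In both, HOMO library 2 was the highest HOMO library and treated libraries 1 and 2 were above it. H3c8 was at 3.81, 0 and 2.47 TPM in the HOMO libraries and 10.6, 10.7 and 0 TPM in the treated libraries, with treated library 3 at 0 and the other treated libraries above all HOMO libraries.

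Among the H4 genes 8 of 9 tested fold changes were below 0, with a median of -0.36, while in each other family more fold changes were above 0 than below. This difference between families was not tested. H4c18 fell in treated samples by the test, with 17.4, 35.7 and 8.55 TPM in HOMO libraries 1, 2 and 3 and 0, 0 and 0 TPM in treated libraries 1, 2 and 3 (limma adjusted p = 0.0217). No fold is given against a group listed at 0. It was the only tested histone gene that passed the filter on low values through 1 group alone, so a difference was built into its selection. Its copy H4c17, which shares 91.7% of its windows with H4c18, was at 0, 0 and 0 TPM in the HOMO libraries and 0, 0 and 25.7 TPM in the treated libraries and was not tested. The sum of both was 17.4, 35.7 and 8.55 TPM in the HOMO libraries and 0, 0 and 25.7 TPM in the treated libraries, in which treated library 3 lay inside the HOMO range and the test was not passed (log2 fold change -1.85, limma adjusted p = 0.412). With all 6 groups of copies summed in this way, 0 histone rows passed the test. The call on H4c18 was also lost without HOMO library 1 (limma adjusted p = 0.129), without HOMO library 2 (limma adjusted p = 0.0568) and without treated libraries 1 and 2 (limma adjusted p = 0.0723).

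In most H4 genes treated library 3 was above treated libraries 1 and 2. H4c8, the most abundant H4 gene, was at 33.3, 37.8 and 30.3 TPM in the HOMO libraries and 8.39, 8.15 and 78.2 TPM in the treated libraries (log2 fold change -0.36, SE 0.81, limma adjusted p = 0.811), so treated libraries stood on both sides of HOMO. H4c12 was at 12.3, 15.3 and 0 TPM in the HOMO libraries and 0, 0 and 9.39 TPM in the treated libraries (log2 fold change -0.90, SE 1.46, limma adjusted p = 0.729). H4c4 was at 8.87, 12.3 and 4.50 TPM in the HOMO libraries and 1.58, 1.59 and 6.66 TPM in the treated libraries, and H4c6 at 5.11, 9.42 and 0 TPM in the HOMO libraries and 0, 0 and 10.5 TPM in the treated libraries. In both, treated library 3 was above treated libraries 1 and 2. H4c9 had the highest H4 fold change, at 1.31, 5.69 and 0.808 TPM in the HOMO libraries and 3.52, 3.44 and 4.82 TPM in the treated libraries (log2 fold change 0.75, SE 0.63, limma adjusted p = 0.483), and H4c14, at 5.14, 7.95 and 5.94 TPM in the HOMO libraries and 5.28, 5.14 and 4.28 TPM in the treated libraries, varied least. Over all families, 14 genes were listed at 0 in treated libraries 1 and 2 and above 0 in treated library 3, and 4 genes showed the reverse. The forebrain neuron markers and the mitochondrial share also separated these treated libraries, and their part in the H4 values was not tested.

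**Figure D5:**
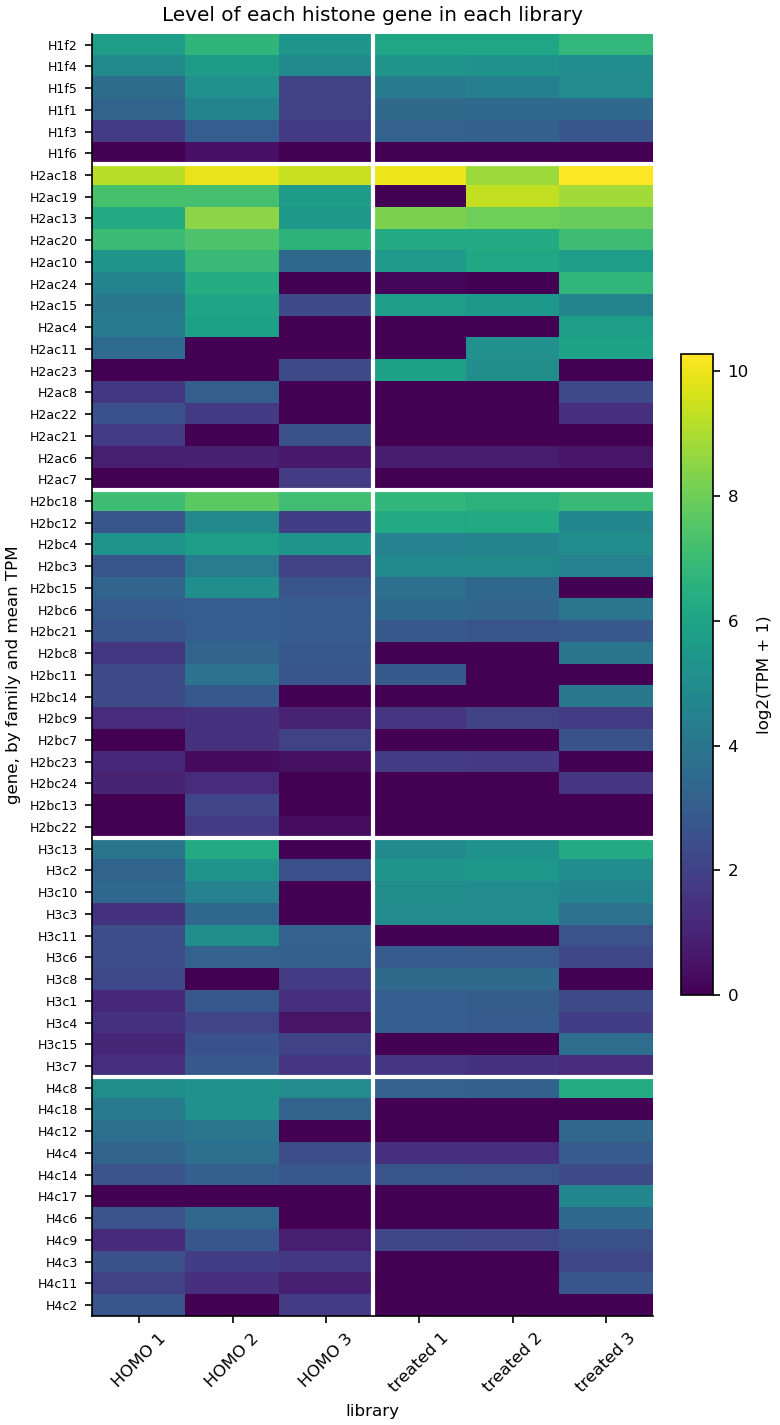
Level of each of the 59 histone genes (rows, by family and mean level) in each library (columns) as log2(TPM + 1), from dark purple at 0 to yellow at about 10. The darkest cells in treated libraries 1 and 2 are genes listed at 0 there, 14 of which, 3 of H2A, 4 of H2B, 2 of H3 and 5 of H4, are above 0 in treated library 3.

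The excess of HOMO library 2 was also described by transcript length, in classes chosen after the values were seen and without a test of their difference. The 13 tested genes with a transcript of more than 1000 bases had a median ratio of HOMO library 2 to the other HOMO libraries of 1.68, against 3.69 in the 37 shorter genes. The poly(A) signal letters AATAAA were found in 9 of these 13 and in 4 of these 37. They were searched anywhere in the transcript, so a longer transcript is more likely to hold them. The median level was 5.64 TPM in the longer class and 14.2 TPM in the shorter. A listing at 0 was found for 2 of these 13 and for 21 of these 37. Their median fold changes between treated and HOMO were 0.04 and 0.20, and 0.28 and 0.73 without HOMO library 2.

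Lists of the machinery around the histone genes were counted beside all tested genes. Of all tested genes 4.41% passed the test, and 26.7% had an unadjusted p under 0.05. Lists of this size would hold few or no calls at that share. Of 12 histone genes outside the name rule, limma called 0 at an adjusted p under 0.05, and the unadjusted p was under 0.05 for 3. Most of them, such as H3f3a and H2az1, are also made outside DNA replication. The 12 genes summed to 911, 1163 and 996 TPM in the HOMO libraries and 1287, 1188 and 1150.1 TPM in the treated libraries. This range was narrower than that of the 59 genes. Of 19 tested genes for transcription and 3′ processing of histone mRNA, limma called 0, and the unadjusted p was under 0.05 for 4 (median log2 fold change 0.06). Slbp, the stem-loop binding protein, named here for its role, was at 31.8, 36.3 and 26.8 TPM in HOMO and 36.9, 40.5 and 26.2 TPM in treated libraries (limma adjusted p = 0.967). Of 18 tested histone chaperones, 1 rose and 1 fell, and the unadjusted p was under 0.05 for 11, against 26.7% of all tested genes. Asf1b, which hands H3 and H4 to assembly factors, was at 0.965, 1.52 and 0.605 TPM in HOMO and 6.64, 6.50 and 19.1 TPM in treated libraries (log2 fold change 2.63, SE 0.53, limma adjusted p = 0.0472). Rbbp4, a histone-binding subunit of chromatin assembly complexes, was at 165, 154 and 150.4 TPM in HOMO and 76.1, 77.1 and 91.9 TPM in treated libraries (log2 fold change -0.89, SE 0.17, limma adjusted p = 0.0423). Neither Asf1b nor Rbbp4 kept its call without any 1 HOMO library, with limma adjusted p from 0.0936 to 0.202 for Asf1b and from 0.0921 to 0.212 for Rbbp4, and Asf1b also lost it under another scaling of the libraries (0.0636).

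Genes of dividing cells were counted in the same way between treated and HOMO. Of all tested genes 4.41% passed the test, 26.7% had an unadjusted p under 0.05, and the median log2 fold change was 0.20. Lists of this size would hold few or no calls at that share, so 0 calls does not set them apart. Of 22 genes of DNA replication limma called 0, the unadjusted p was under 0.05 for 6, and the median log2 fold change was 0.42. Of 15 tested genes of G2 and mitosis limma called 0, the unadjusted p was under 0.05 for 4, and the median was 0.65. In the same comparison 7 of 12 tested lymphocyte markers, such as Trac and Trbc2 of the T cell receptor, rose, against 3.44% of all tested genes. The list summed to 47.5, 64.7 and 35.0 TPM in the HOMO libraries and 181, 177 and 224 TPM in the treated libraries. Trac and Cd8a were among the called markers that passed the filter on low values through treated libraries alone, so a difference was built into their selection. The 7 calls became 2 without HOMO library 1 (Cd3e and Trbc2), 0 without HOMO library 2 and 0 without HOMO library 3. Trbc1 was listed at 0 in all HOMO libraries. Of 10 macrophage markers, such as the complement genes C1qa and C1qc, 6 rose, and the list summed to 97.6, 140.4 and 103 TPM in the HOMO libraries and 493, 478 and 548 TPM in the treated libraries. These 6 calls became 0 without HOMO library 1, 4 without HOMO library 2 and 1 without HOMO library 3. With no filter on low values 0 lymphocyte and 2 macrophage markers passed. Of 8 bone markers Ibsp alone fell (limma adjusted p = 0.0332), all 8 fold changes were below 0, and the unadjusted p was under 0.05 for 4. The call on Ibsp was lost without HOMO library 1 (limma adjusted p = 0.109) or HOMO library 3 (0.115). Of 11 supporting cell and lateral wall markers Otog rose (limma adjusted p = 0.0223) and Otos fell (0.0346), and the unadjusted p was under 0.05 for 5. Otos lost its call without any 1 HOMO library (limma adjusted p from 0.0805 to 0.186), and Otog without HOMO library 1 (0.129) or HOMO library 2 (0.0609). None of 8 erythroid, 9 granulocyte, 4 forebrain neuron or 7 hair cell markers passed limma, with 0, 1, 1 and 5 at an unadjusted p under 0.05. The part of these cells in the histone values was not tested. Of 3 tested noncoding RNAs that also lack a canonical poly(A) tail, such as Malat1 and Rmrp, limma called 0, the unadjusted p was under 0.05 for 1, and the list summed to 27506, 23943 and 23337 TPM in the HOMO libraries and 10003, 10694 and 10934 TPM in the treated libraries.

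The homozygous genotype was compared with wild type for the 3 histone genes listed in the table of WT and HOMO libraries. HOMO mice differ from WT mice in the humanized allele as well as in its nonsense change, which cannot be told apart here. There, 692 of 1348 tested genes (51.3%) passed the test, 17.9% higher and 33.5% lower in HOMO, and of the 3 histone genes 2 passed it, both higher. The balance of all genes depended on the scaling of the libraries, since median-of-ratios scaling gave 34.9% higher and 16.1% lower, with the same 2 histone genes called. That table holds a selected part of the genes, so its adjusted p-values are too small and its counts are no independent evidence. H2ac19 was at 14.3, 15.5 and 0 TPM in WT libraries 1, 2 and 3 and 111, 114 and 34.2 TPM in HOMO libraries 1, 2 and 3, higher in each HOMO library than in each WT library (log2 fold change 3.60, SE 1.01, limma adjusted p = 0.0347). The call was lost without WT library 1 (limma adjusted p = 0.0513), HOMO library 1 (0.0743) or HOMO library 2 (0.0558). H2ac23 was listed at 0 in every WT library, so that it passed the filter through HOMO alone, and was at 12.1, 6.66 and 2.47 TPM in HOMO libraries 1, 2 and 3 (limma adjusted p = 0.00639). H1f4 was at 33.8, 33.8 and 53.7 TPM in WT libraries 1, 2 and 3 and 21.2, 34.7 and 20.1 TPM in HOMO libraries 1, 2 and 3, with overlapping groups (log2 fold change -0.66, SE 0.26, limma adjusted p = 0.0549), and passed the test without HOMO library 2 (limma adjusted p = 0.0275).

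The values of these 3 genes in the HOMO libraries depended on the table. H1f4 was 1.39 to 1.41 times as high in the HOMO libraries of the other table, at 29.4, 48.5 and 28.2 TPM, and H2ac19 was 1.32 to 1.42 times as high, at 156, 150.2 and 48.6 TPM. H2ac23, however, was listed there at 0, 0 and 4.24 TPM in HOMO libraries 1, 2 and 3, where the first table gave values above 0 in each. H2ac18 and H2ac24, the copies with which these H2A genes share most of their sequence, are not among the 1410 symbols of the WT and HOMO table, so a sum over copies could not be formed there. The HOMO libraries are common to both comparisons, and the values of each comparison stand side by side without a test across them.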

How the data were processed

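The deposited values were TPM in 2 tables, made by the authors with kallisto 0.51.0 on the build GRCm39, per the submitters' processing notes, which also name DESeq without a version. One table holds WT and HOMO libraries for a selected part of the genes, the other HOMO and treated libraries, and tests were made within a table. Rows of a repeated symbol were summed.

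Testing used limma (version 3.58.1, R 4.3.3) on log2(TPM + 1), a pseudocount of 1, for genes at 1 TPM or more in at least 3 deposited libraries. The coefficients were an intercept and the group difference, which was tested, and the variance was trended on the mean. The p-values were two-sided and adjusted by Benjamini-Hochberg over every tested gene of the table, with a threshold of 0.05. Family sums had no test. The code was tested on simulated data. The histone genes, the 14 lists and the rules were chosen with earlier results of these data known. Genes named with values were, in each family, the 3 highest tested means, the smallest p, every called gene and every gene in both tables, and, of each list, the called genes with the smallest p or else the highest means. Others were named after their values were seen.

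Treated libraries 1 and 2 were averaged because the SD of their log2 ratio at 1 to 5 TPM was low. It was 0.802, against 1.50 to 1.71 between HOMO libraries of the second table. Replicate pairs of the first table lay nearer to it, at 0.989 to 1.20. The median form of this measure was added after that SD had been seen. It was 0.0749 for treated libraries 1 and 2, against 0.406 to 0.556 for replicate pairs of the first table. The replicate numbers were not used to pair the libraries. The deviations of same-numbered libraries correlated at 0.0493, -0.140 and -0.0743 in the first table and at 0.0304, -0.146 and -0.117 in the second. As treated libraries 1 and 2 were nearly identical, the check could not decide on pairing in the second table. P-values measure the spread between the deposited libraries. Transcript windows and stem-loops came from GENCODE M21 on GRCm38, an older build than that of the files, and promoters from RefSeq on GRCm38.p6. The merging of copies that share over 80% of their windows, the classes of uniqueness and of transcript length, and the search for stem-loops and AATAAA were added after values were seen. Alternatives covered the pseudocount, scaling, filter, mitochondrial genes, replicate block, left-out libraries and merged copies.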

Additional observations from a re-analysis of the deposited data

How the results depend on the processing

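The named histone genes had 327 alternative values, of which 301 kept direction and side of the threshold. Another 6 gained a call, 7 lost one and 13 turned sign. Some of the settings also changed the number of samples or of genes tested. The causes of the changed calls and signs were not tested. The 1 histone gene called in treated against HOMO became 0 with no filter, 0 without treated libraries 1 and 2 and 0 with copies merged, 2 with 6 libraries as separate samples, and 0 to 4 with 1 library left out (H2ac23, H4c18, H4c3 and H4c8 without treated library 3, and H2bc11 with H4c18 without treated library 1). H4c18 lost its call with no filter (limma adjusted p = 0.0842). With 6 libraries as separate samples and the replicate block, 3 were called (H2bc12, H3c3 and H4c18), and in HOMO against WT the replicate block gave 2, as without it. No pairing by replicate number was seen in the first table, and the check could not decide it in the second. In HOMO against WT the count of 2 ranged from 1 to 2 with 1 library left out.

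The log2 ratio of the H2B sums was 0.36 without its most abundant gene. With 1 library left out the log2 ratios of the sums ranged from 0.02 to 0.86 for H1 and 0.26 to 0.99 for H2A. They ranged from -0.21 to 0.27 for H2B, 0.39 to 2.02 for H3 and -2.34 to 0.13 for H4. Of 66 alternative sums, 63 moved by less than the SD between replicates. That SD came from these same libraries, HOMO library 2 included, and was 1.01 for H3 and 1.56 for H4 on the log2 scale. A move smaller than it therefore does not show that a sum is stable. Median-of-ratios scaling moved the median of all genes from 0.20 to 0.03, and the direction of every family sum held. The log2 fold change turned sign for H1f4 (-0.15 under median-of-ratios scaling, -0.092 without mitochondrially encoded genes, -0.10 to 0.28 with 1 library left out and -0.11 without treated libraries 1 and 2), H2ac18 (-0.015 to 0.61 with 1 library left out), H2ac19 (-2.31 to 2.37 with 1 library left out, -0.66 with 6 libraries as separate samples and -0.66 with the replicate block), and, without treated libraries 1 and 2, H2ac23 (-0.80), H4c12 (0.79) and H4c8 (1.19).

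Over all genes, calls in treated against HOMO numbered 754 (589 higher and 165 lower), 620 under median-of-ratios scaling (395 higher and 225 lower), 134 with no filter, 3563 with 6 libraries as separate samples and 1485 with the replicate block. In HOMO against WT they numbered 692 (241 higher and 451 lower), 687 under that scaling (470 higher and 217 lower) and 343 with the replicate block. Depth is unknown, and 2 treated samples limit every treated comparison.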
